A study of Mus musculus with 2 samples.

Results

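The genes described here are 10 genes of complement and of its control, with tissue factor, in C2C12 cells. They are the rows whose symbol is C3, C4b, Cfb, Serping1, Cd55, Cd59a, Cd46 or F3, and, because no row bears the symbol C1s, the rows of C1s1 and C1ra. These 10 are part of 21829 gene symbols. C2C12 is an immortalised mouse myoblast line. The measurement was RNA sequencing of polyadenylated RNA from 2 libraries, 1 of unedited cells (WT) and 1 of cells in which Gne, the gene of the enzyme that starts sialic acid synthesis, had been disrupted by an indel made with CRISPR–Cas9 (KO). Both were grown in medium with serum, and the methods describe KO cells expanded from single clones. The comparison asks how these transcripts differ between the lines, and with 1 library per line no difference has a replicate check, so values are given without a test. Each file holds 1 number per gene, taken as FPKM, that is, fragments scaled by transcript length and by sequencing depth. The totals were 568410 in WT and 574144 in the KO-labelled library. Gne itself had 6.67 FPKM in WT and 7.34 FPKM in the KO-labelled library, so its RNA level does not check the labels, and an exchange of the libraries would reverse each direction below.

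Complement is a cascade of plasma and tissue proteins that tags and lyses targets. In the classical pathway the protease C1r activates C1s, which cleaves C4 and C2, and in the alternative pathway factor B binds deposited C3b. All routes meet at C3, and host cells are shielded by inhibitors in plasma and on the cell surface. The liver makes most plasma complement, and stromal cells and macrophages make some locally. Tissue factor, the product of F3, is not a complement protein. It is the membrane receptor that starts coagulation by binding factor VII, and coagulation proteases and complement act on each other.

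The RNAs of the C1 proteases, of C3 and of the membrane inhibitor Cd59a were higher in the KO-labelled library, whereas F3 was slightly lower and the other 5 genes were near 0 in both libraries. C1s1 was 2.88 times as high as in WT, C1ra 1.82 times, C3 6.28 times and Cd59a 3.94 times. Fold changes below are log2((KO + 1)/(WT + 1)), which understates differences of weakly expressed genes, and a gene is counted as changed beyond a log2 fold change of 1 if it averages at least 1 FPKM. By that rule 2.84% of the 10542 genes that reached this mean (the filter) were higher in the KO-labelled library and 3.43% were lower. Of the 10 genes 5 passed the filter, and 3 of these were higher and 0 lower. C3 and Cd59a passed only through the KO-labelled library, in which they had to be higher, so the count of 3 is a description. In bulk RNA, more cells of a type and more RNA per cell cannot be told apart. Over all genes past the filter the median was 0.0061, with an interquartile range from -0.21 to 0.23. Of these genes 50.7% were above their WT value in the KO-labelled library.

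**Figure D1:**
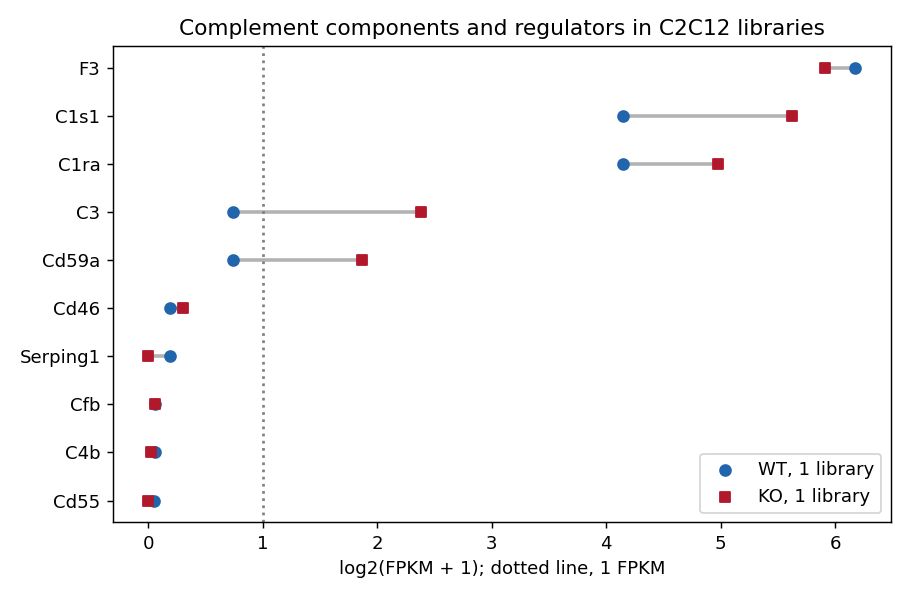
Level of each of the 10 genes as log2(FPKM + 1) on the horizontal axis, with 1 point for the WT library and 1 for the KO-labelled library; there is no error bar because each line has 1 library. C1s1, C1ra, C3 and Cd59a have the KO point to the right, F3 has it slightly to the left, and 5 genes lie below 1 FPKM in both libraries.

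C1s1 encodes C1s, the protease that cleaves C4 and C2. Its level was 16.8 FPKM in WT and 48.3 FPKM in the KO-labelled library (log2 fold change 1.47). C1ra encodes C1r, which activates C1s within the C1 complex. It was 16.7 FPKM in WT and 30.5 FPKM in the KO-labelled library (log2 fold change 0.83), short of the threshold. In FPKM the C1s1 level was 1.00 times that of C1ra in WT and 1.59 times in the KO-labelled library, so their levels were alike in one library and apart in the other. C1s1 is among the better expressed genes, since 77.2% of all symbols had a lower value in WT and 91.2% in the KO-labelled library.

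The 2 genes lie in a cluster of C1 protease genes on chromosome 6 of GRCm39. C1ra runs from 124489364 to 124500402 on the plus strand and C1s1 from 124507297 to 124559389 on the minus strand in GENCODE vM39. C1rl, which encodes a protease related to C1r and is named here after its values were seen, starts 37.2 kb before the first coordinate of C1s1. It went from 4.50 FPKM in WT to 11.6 FPKM in the KO-labelled library (log2 fold change 1.20). On the other side of that first coordinate lie the paralogs C1rb, inside the annotated C1s1 gene, and C1s2, beyond it. C1rb had 1.40 and 1.58 FPKM, and C1s2 had 1.05 and 2.35 FPKM, log2 fold changes of 0.10 and 0.71. All 5 family genes were thus above their WT values in the KO-labelled library, and their summed level went from 40.5 to 94.3 FPKM, 2.33 times as high, although the C1rb difference lay inside the interquartile range of all genes. Within 250 kb on either side of the first coordinate of C1s1, the 8 other genes past the filter had log2 fold changes between -0.19 and 0.40. Of these, 4 were above and 4 below 0. Pex5, the nearest of them on the C1rl side, had -0.14, and Lpcat3 and Emg1, beyond C1s2, had -0.16 and -0.17. Over the wider window of 5 Mb on either side, 1 of 67 genes past the filter had a larger fold change than C1s1.

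**Figure D2:**
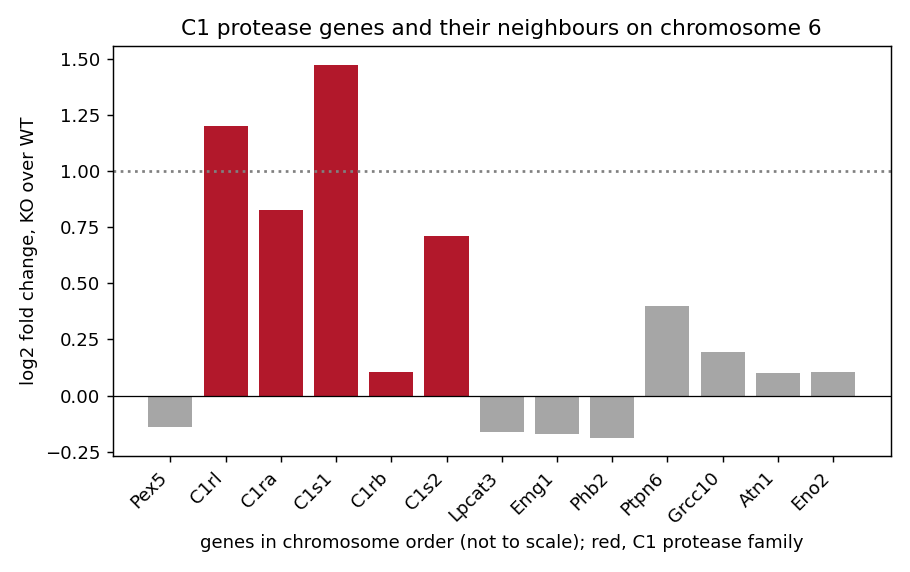
Bars give the log2 fold change, the KO-labelled library over WT, of each gene past the filter near C1s1, in chromosome order. Genes whose first coordinate lies within 250 kb of that of C1s1 are shown, and the dotted line marks 1. The 5 C1 protease genes (red) are all above 0, at 0.10 to 1.47, and the genes on both sides (grey) lie between -0.19 and 0.40.

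The paralogs share sequence, so the split of reads among them is uncertain. Of all windows of 75 bases in the longest C1ra transcript, 40.1% also occur in C1rb, and 13.6% of those of C1s1 occur in C1s2. The sums are less open to this. C1ra and C1rb together had 18.1 FPKM in WT and 32.1 FPKM in the KO-labelled library, and C1s1 and C1s2 together had 17.8 and 50.7 FPKM. The log2 fold changes of the sums were 0.79 and 1.46. The annotated C1s1 gene also overlaps C1rb on the opposite strand, and whether the quantification used strand is not given in the sources used here.

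C3, whose cleavage is the step at which all pathways meet, was 0.669 FPKM in WT and 4.20 FPKM in the KO-labelled library (log2 fold change 1.64). It was low in WT, and its rank among the 10 genes was 5 in WT and 4 in the KO-labelled library. It occupies 57510964 to 57535155 of chromosome 17 (GRCm39, minus strand), and 0 of the 42 genes past the filter within 5 Mb of it had a larger fold change. Their median was -0.076. The steps between low values allow a rough estimate of the fragments behind a value, and by it C3 rests on at most about 98 fragments in WT and 530 in the KO-labelled library. C1s1 remained the more abundant RNA, at 25.1 times the FPKM of C3 in WT and 11.5 times in the KO-labelled library.

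Cfb and C4b, which supply the other parts of the C3-cleaving enzymes, had almost no RNA. Cfb, factor B of the alternative pathway, was 0.041 FPKM in WT and 0.043 FPKM in the KO-labelled library, at most about 3.8 and 3.4 fragments. C4b, the complement C4 gene, was 0.043 and 0.014 FPKM, at most about 6.7 and 1.9 fragments. At this depth no difference could be seen in either gene. C4b and C4a share 22.8% of the C4b windows of 75 bases. No row bears the symbol C4a, so their sum could not be taken. C2, the partner of C4, was listed at 0 in both libraries.

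Serping1 encodes the C1 inhibitor, the serpin that blocks C1r and C1s. It was 0.142 FPKM in WT, at most about 9.1 fragments, and was listed at 0 in the KO-labelled library. In WT its RNA was far below that of both proteases it inhibits. An exact 0 without counts can also be a failed estimate, so any fold of this gene rests on that value.

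The cell surface inhibitors differed in level among themselves. Cd59a, which blocks assembly of the membrane attack complex, was 0.672 FPKM in WT and 2.65 FPKM in the KO-labelled library (log2 fold change 1.13), on at most about 73 and 250 fragments. It occupies 103926132 to 103947029 of chromosome 2 (GRCm39, plus strand), and 0 of the 24 genes past the filter within 5 Mb had a larger fold change. Its paralog Cd59b, next to it, was listed at 0 in both libraries. Cd55, which speeds the decay of the C3-cleaving enzymes, was 0.035 FPKM in WT, at most about 3.2 fragments, and was listed at 0 in the KO-labelled library. Its paralog Cd55b was listed at 0 in both. Cd46, a cofactor for cleavage of C3b that in mice is known mainly from testis, was 0.14 and 0.23 FPKM. The main surface inhibitor of C3 deposition in mice, Cr1l (Crry), lies beside Cd46 and was 34.9 FPKM in WT and 35.7 FPKM in the KO-labelled library (log2 fold change 0.035). In FPKM it was 51.9 times the level of Cd59a in WT and 13.5 times in the KO-labelled library.

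F3 was the most abundant of the 10 genes in both libraries. It was 71.3 FPKM in WT and 59.4 FPKM in the KO-labelled library (log2 fold change -0.26), just outside the interquartile range of all genes. It occupies 121516610 to 121528820 of chromosome 3 (GRCm39, plus strand), where the 21 genes past the filter within 5 Mb had a median of 0.29, and 19 of them had a higher fold change than F3. The lower quartile of all genes past the filter was -0.21, so most genes elsewhere also had a higher fold change than F3.

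**Figure D3:**
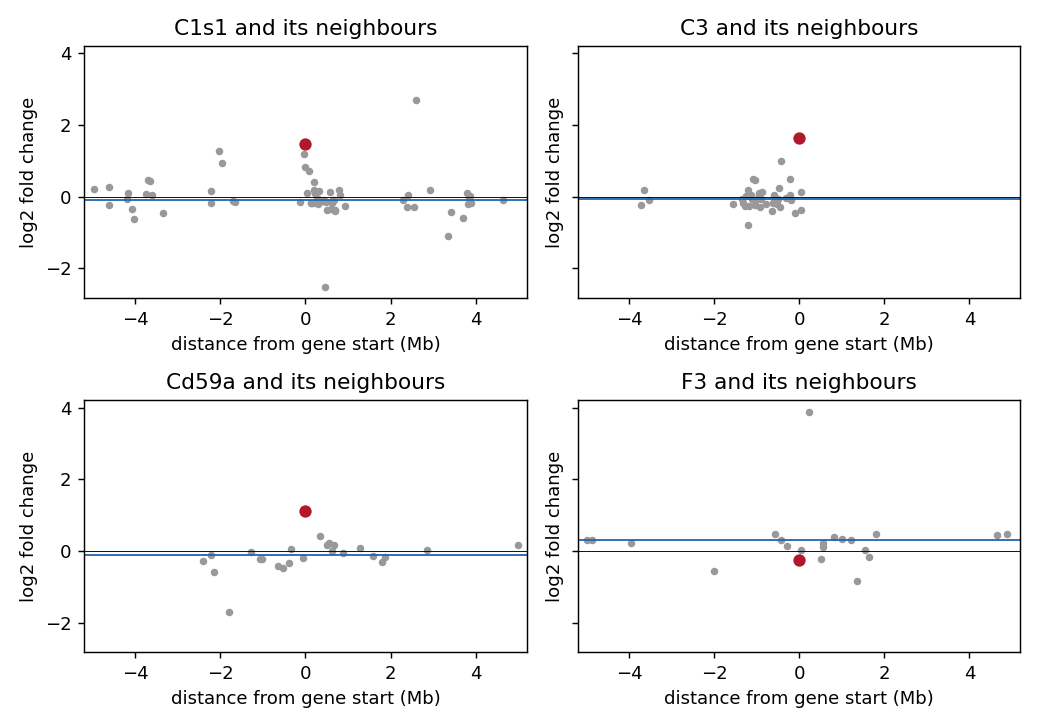
Log2 fold change, the KO-labelled library over WT, of the genes past the filter within 5 Mb of C1s1, C3, Cd59a and F3 against distance in Mb. Distance is taken between the lowest coordinates of the genes, whatever their strand. The gene itself is red and the blue line is the median of its neighbours. C3 and Cd59a lie above all their neighbours, C1s1 above all but 1, and F3 below its neighbours' median of 0.29.

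Promoter windows of the 4 genes that were higher and of F3 are shown so that their sequences can be compared. They follow RefSeq starts, and those of C1s1 and F3 lie inside the GENCODE genes given above, not at their 5' ends. RefSeq windows for GRCm38.p6 (250 bases before to 50 after the start) were at hand for 7 of the 10 genes, and each window printed here matched its GRCm39 chromosome exactly and at 1 place. Capitals mark matches, on either strand, to 5 motifs: a TATA box (TATAAA), AP-1 (TGANTCA), C/EBP (TTGCNNAA), STAT (TTCNNNGAA) and Sp1 (GGGCGG). For C1s1, which has 2 windows, the first is given.
C3, GRCm39 chr17:57535087-57535386, minus strand: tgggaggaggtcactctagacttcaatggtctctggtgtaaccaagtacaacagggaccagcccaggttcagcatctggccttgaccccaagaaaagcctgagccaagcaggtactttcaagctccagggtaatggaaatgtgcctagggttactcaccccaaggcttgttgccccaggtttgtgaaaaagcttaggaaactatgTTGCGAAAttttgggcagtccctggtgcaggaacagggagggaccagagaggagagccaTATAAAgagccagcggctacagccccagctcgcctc
C1s1, GRCm39 chr6:124519269-124519568, minus strand: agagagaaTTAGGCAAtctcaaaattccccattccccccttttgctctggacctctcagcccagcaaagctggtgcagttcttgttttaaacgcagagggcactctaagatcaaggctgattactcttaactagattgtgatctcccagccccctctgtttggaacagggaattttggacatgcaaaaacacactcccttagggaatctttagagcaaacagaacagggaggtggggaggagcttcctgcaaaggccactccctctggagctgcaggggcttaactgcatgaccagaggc
C1ra, GRCm39 chr6:124489330-124489629, plus strand: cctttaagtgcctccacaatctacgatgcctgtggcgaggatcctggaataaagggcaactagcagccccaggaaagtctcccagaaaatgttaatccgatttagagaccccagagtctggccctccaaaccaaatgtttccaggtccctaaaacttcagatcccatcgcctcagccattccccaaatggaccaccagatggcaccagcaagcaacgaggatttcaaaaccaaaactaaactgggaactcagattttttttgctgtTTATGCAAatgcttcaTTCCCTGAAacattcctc
Cd59a, GRCm39 chr2:103925896-103926195, plus strand: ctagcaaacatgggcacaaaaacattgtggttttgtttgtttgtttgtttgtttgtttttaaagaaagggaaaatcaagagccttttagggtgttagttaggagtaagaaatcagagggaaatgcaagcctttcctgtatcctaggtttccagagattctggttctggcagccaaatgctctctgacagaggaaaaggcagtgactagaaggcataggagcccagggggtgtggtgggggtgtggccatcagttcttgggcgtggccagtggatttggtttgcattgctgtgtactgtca
F3, GRCm39 chr3:121516936-121517235, plus strand: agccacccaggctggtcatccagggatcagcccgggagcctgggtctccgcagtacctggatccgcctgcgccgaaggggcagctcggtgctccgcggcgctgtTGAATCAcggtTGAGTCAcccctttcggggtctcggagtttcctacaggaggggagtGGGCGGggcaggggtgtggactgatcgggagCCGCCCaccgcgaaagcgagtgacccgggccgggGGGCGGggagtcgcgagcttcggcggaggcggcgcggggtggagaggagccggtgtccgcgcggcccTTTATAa

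C3 had 1 C/EBP match, at base 206 of the window, and 1 TATA box match, at base 265. C1ra held 1 C/EBP and 1 STAT match close to each other near the end of the window, the C1s1 window shown held 1 C/EBP match at base 9 whereas its other window held none of the motifs, and the Cd59a window held none of the 5 motifs. F3 held 2 AP-1 matches, at bases 105 and 116, with 3 Sp1 matches and 1 TATA box match, at base 294 on the minus strand, and its window had the highest GC content at 70.3%, against 53.3% for C3 and 45.7% for Cd59a. No matches overlapped. Over 32851 windows of the same length the share with a match was 13.6% for the TATA box, 7.81% for AP-1, 10.8% for C/EBP, 8.3% for STAT and 35.7% for Sp1. The 5 windows each held a different set of motifs, and a match is a description of letters, not of a factor's binding.

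The rest of the pathway was described with 7 lists: classical, lectin, alternative and terminal pathways, soluble and membrane regulators, and receptors. Of their 53 genes in the files 26 were listed at 0 in both libraries and 10 passed the filter. Of all 21829 symbols, 10542 passed it. Over all 53 genes 18 were higher and 9 lower, with a median log2 fold change of 0. Of the 10 past the filter 9 were higher and 1 lower, a description only, since C3 and Cd59a are among the 9 and passed through the KO-labelled library alone. Among all genes past the filter 50.7% were higher. Beyond a log2 fold change of 1 there were 3 higher genes, which are C1s1, C3 and Cd59a again, and 0 lower. Masp1, the gene of proteases of the lectin pathway, was 31.3 FPKM in WT and 36.6 FPKM in the KO-labelled library (log2 fold change 0.22). The recognition molecules were nearly silent, with C1qa and C1qc listed at 0 in both libraries, C1qb at 0 and 0.043 FPKM, and Mbl1 and Mbl2 at 0 in both. Cfp, properdin, which stabilises the alternative enzyme, was 1.18 and 1.07 FPKM. In the terminal pathway 0 of 7 genes passed the filter, and the highest was C8g at 0.195 and 0.179 FPKM. Among soluble regulators 0 of 8 genes passed the filter, and Clu, clusterin, was 0.129 and 0.22 FPKM. Among receptors, Itgb2, a chain of complement receptors on leukocytes, was 1.12 and 1.96 FPKM, and C3ar1, the receptor for C3a, was 0.65 and 1.03 FPKM.

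**Figure D4:**
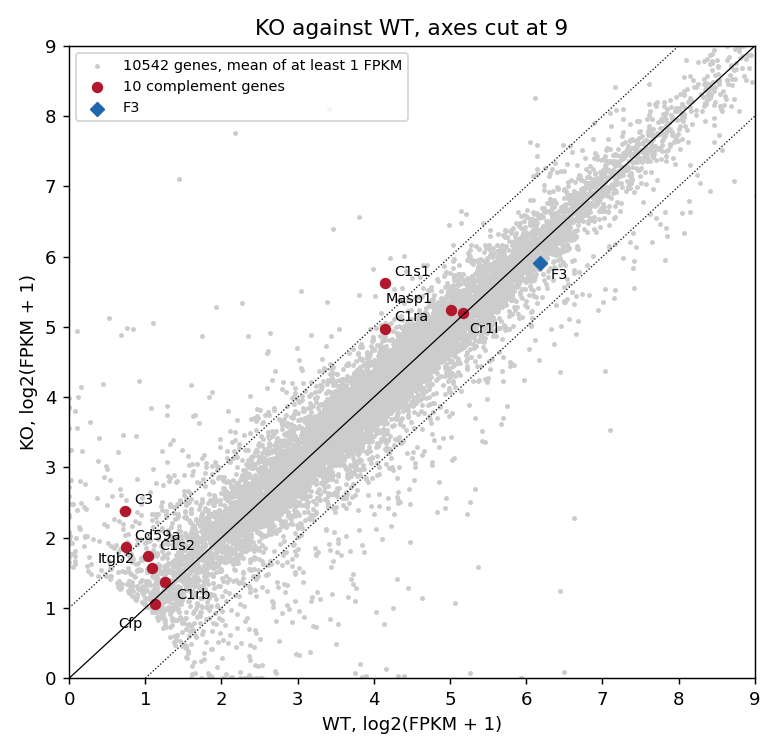
Level in the KO-labelled library against WT, both as log2(FPKM + 1), for 10542 genes averaging at least 1 FPKM (grey), the 10 complement genes past the filter (red) and F3 (blue); the solid line marks equality and the dotted lines a difference of 1. C1s1, C3 and Cd59a lie above the upper dotted line, and Masp1 and Cr1l lie close to the solid line.

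Of 15 genes of tissue factor and the start of coagulation, 9 passed the filter, 4 of them higher and 5 lower, with 0 beyond a log2 fold change of 1 in either direction and a median of -0.26. F2r, a thrombin receptor, was the highest, at 89.2 FPKM in WT and 149 FPKM in the KO-labelled library. Tfpi, the inhibitor of the tissue factor pathway, was 12.1 and 17.6 FPKM (log2 fold change 0.51). The values of Plaur, the urokinase receptor, were 53.7 and 30.4 FPKM. Plau, urokinase itself, was 10.04 and 20.6 FPKM (log2 fold change 0.97). The thrombin cofactor Thbd was 16.9 and 8.73 FPKM. F7, the ligand of tissue factor, had 0.093 and 0.083 FPKM, and F10 was listed at 0 in both libraries.

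Markers of cell types that make complement were read beside these values. Of 8 macrophage and leukocyte markers, 1 passed the filter, Cd68, at 2.85 FPKM in WT and 1.06 FPKM in the KO-labelled library. Ptprc, Adgre1, Tyrobp and Aif1 were listed at 0 in both libraries. The list, of which Cd68 makes up most, summed to 3.40 FPKM in WT and 1.67 FPKM in the KO-labelled library. Over the whole list 2 genes were higher and 2 lower. All 5 hepatocyte markers were listed at 0 in both libraries. The 6 endothelial markers summed to 0.01 and 0.08 FPKM, with Cdh5, Kdr and Emcn at 0 in both. Of 7 fibroblast and fibro-adipogenic markers 3 passed the filter. Pdgfra was 10.8 and 12.3 FPKM, Ly6a 198 and 146 FPKM, and Cd34 136 and 10.6 FPKM. Below the filter, Dcn was 0.272 and 1.68 FPKM and Dpt 0.041 and 0.493 FPKM, both higher in the KO-labelled library, and Lum and Thy1 were listed at 0 in both. The list, of which Ly6a and Cd34 make up most, summed to 346 FPKM in WT and 171 FPKM in the KO-labelled library. Of 8 myoblast markers 6 passed the filter, 4 of them more than 2-fold lower and 1 more than 2-fold higher, and their sum was 246 FPKM in WT and 54.1 FPKM in the KO-labelled library. Des was 97.6 and 3.84 FPKM, Cdh15 16.6 and 0.701 FPKM, Chrna1 15.3 and 0.917 FPKM, Itga7 47.4 and 28.4 FPKM and Myf5 9.14 and 20.3 FPKM. Myod1, the defining myoblast factor, was 59.97 FPKM in WT and was listed at 0 in the KO-labelled library. It is among the 4 lower markers, and that 0 can likewise be a failed estimate. Pax7 was listed at 0 in both. The part of these differences in the complement values was not tested.

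**Figure D5:**
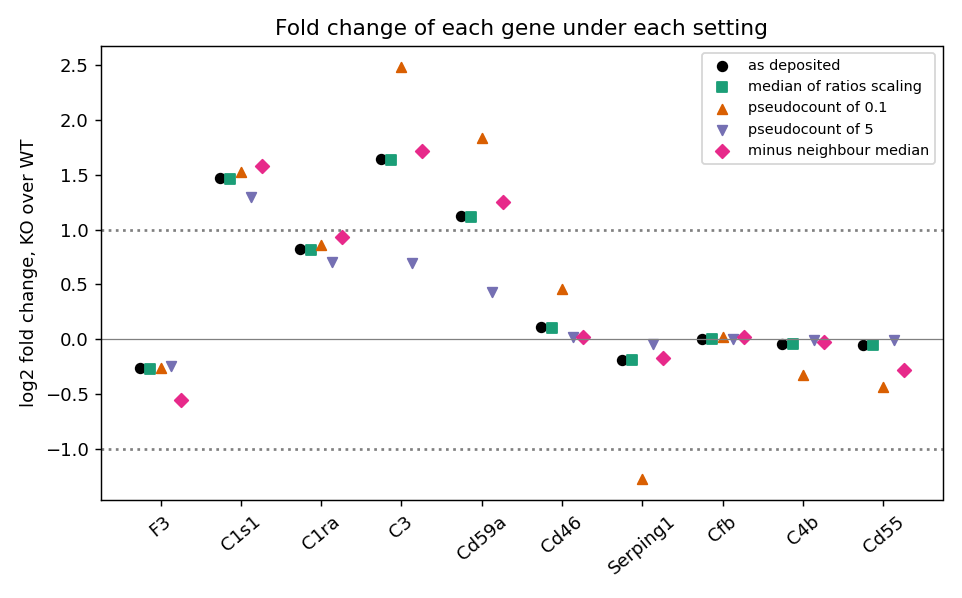
Log2 fold change, the KO-labelled library over WT, of each of the 10 genes (horizontal axis) as reported and under 4 other settings; dotted lines mark -1 and 1. C1s1 stays above 1 throughout, C3 and Cd59a drop below 1 with a pseudocount of 5, C1ra stays between 0.71 and 0.93, and F3 stays below 0.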

How the data were processed

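Polyadenylated RNA of C2C12 cells was sequenced, 1 library for WT and 1 for KO. The labels and the methods differ on the kit and read length. The authors deposited 1 FPKM value per gene symbol; the unit is not named in the files and was inferred from the column totals and the steps between low values. Per the labels and methods, reads were trimmed with Trim Galore 0.6.6, aligned with STAR and quantified with RSEM 1.3.3; the methods name GRCm39, and GRCm38 is among the builds of the labels.

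In the 21853 rows there were 24 with a symbol already present, of which only the more highly expressed row was used. A pseudocount of 1 and a minimum mean of 1 FPKM were used. Chromosome positions and transcripts came from GENCODE vM39 (GRCm39). The number of reads is unknown. The value of 1 fragment was estimated from genes with 1 transcript, as the median of FPKM times length, less 200 bases, in the lowest cluster of values: 0.034 (WT) and 0.0396 (KO-labelled) FPKM times kilobases. These settings were chosen after values had been seen, and a gene's fragments were computed for its longest coding transcript.

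The genes and lists were chosen with earlier results of these data known. Named genes are the 10 genes, their paralogs, the listed genes past 2-fold or among the 4 highest of their list, and marker genes averaging 1 FPKM or more; others named were chosen after their values were seen. With 1 library per line, no gene was sought for a like pattern. Some genes of the lists are not reported here. The fold rule was tested on simulated data made from genes with higher WT values than C3 and Cd59a. It therefore says nothing of the rule at the level of these genes. Python 3.11.15, numpy 2.4.6, pandas 2.3.3 and matplotlib 3.10.9 were used.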

Additional observations from a re-analysis of the deposited data

How the results depend on the processing

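No replicate could be left out. No paired analysis was possible because each group holds 1 library and nothing was tested. A count had to change more than 1.5 times to be called moved, and a single gene by more than 0.44, the interquartile range of all genes. Scaling by the median of ratios, no filter, removal of the local median and summing of repeated symbols kept each count within 1.5 times. With a pseudocount of 5 the 3 genes beyond 2-fold became 1, among the 10 genes and in the complement lists alike, and the counts over all genes went from 299 higher and 362 lower to 102 and 176. When only genes averaging 5 FPKM or more were counted, these numbers were 1, 1, 145 and 221. In both cases C1s1 was the gene left. On the log2 scale C3 was at 2.48 and 0.70 with pseudocounts of 0.1 and 5, and Cd59a at 1.83 and 0.43, so their size rests on the pseudocount. Serping1 had -1.27 with a pseudocount of 0.1, on a value listed at 0. No direction of a called gene changed under the 7 alternatives. A pseudocount or a filter cannot reverse a direction, so for these settings that outcome was fixed in advance.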

Other observations

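The RNAs of factors known to act on complement promoters, and of the inhibitor Nfkbia, were read as a list of 8 genes. All passed the filter, with 2 higher and 6 lower in the KO-labelled library, 0 beyond 2-fold, and a median log2 fold change of -0.11. Stat3 was 14.4 FPKM in WT and 16.5 FPKM in the KO-labelled library. Irf1 was 12.2 and 11.98 FPKM, Nfkb1 40.6 and 35.3 FPKM, Rela 39.2 and 35.05 FPKM, and Cebpd 3.14 and 2.98 FPKM. The values of Cebpb, a C/EBP factor, were 54.9 and 40.7 FPKM, and those of Nfkbia, the NF-kB inhibitor, were 52.7 and 41.9 FPKM. RNA levels of a factor say nothing of its activity, and no link to C3 or C1s1 was tested.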
